A study of Mus musculus with 2 samples.

Results

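Sequences of 28 to 35 nt that match no annotated transcript made up a large share of the longer small RNA reads in mouse mesenchymal stem cell (MSC) lines with and without Dicer, and most of the reads among them that could be identified were 5′ fragments of nuclear tRNAs. The set was chosen by length, by the absence of a perfect sense match to a GENCODE mouse transcript, by not ending in CCA (the 3′ end of a mature tRNA), and by having 10 or more reads summed over the libraries. It holds 6805 of the 1236583 distinct sequences of the study. Before the read minimum, 168440 unmatched sequences of this size did not end in CCA. At the edge of that minimum, 967 sequences had 9 reads and 715 had 10. Of the members, 4522 were read in both libraries, 2212 in null alone and 71 in f/f alone, so the minimum was often passed through the null library. The median member had 19 reads and the most frequent one 123237.

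The study sequenced RNA of 15 to 50 nt from 2 cell lines on the C57BL/6 background, 1 library per genotype. MSCs are fibroblast-like cells of adult bone marrow, and both lines were immortalized and monoclonal. The medium was alpha-MEM with 10% fetal bovine serum and antibiotics, and cells were taken shortly before they were confluent, with no other treatment. The f/f line carries Dicer f/f alleles and is labelled wild type. The null line is Dicer -/-, and the 2 at the end of its title is not explained. Each genotype is 1 clonal line, so clone and genotype cannot be told apart, and which cells or promoter drove the deletion is not stated. The f/f library held 9943989 reads and the null library 6291599. With 1 library per genotype no difference has a replicate check, and p-values are left out. Intervals are at 95% and cover counting error alone, since PCR copies of 1 molecule can be counted more than once. All 7 hairpins listed for mesenchymal cells had reads, 1879884 in f/f and 30648 in null, each read counted once. The 3 blood hairpins had 20 and 73 reads, the 3 epithelial ones 33 and 220, and Mir126a, the endothelial one, 333 and 13. Of the 3 muscle hairpins, Mir1a-1 had none and Mir206 had 2236 and 1.

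Nuclear tRNAs are transcribed by RNA polymerase III from promoters that lie inside the gene. The upstream element, box A, encodes the D arm and so begins close to the 5′ end of the mature tRNA. In mammalian cells RNases such as angiogenin can cut a tRNA in its anticodon loop, which leaves a 5′ fragment and a 3′ fragment that ends in CCA. Dicer is the RNase III enzyme that releases miRNAs from hairpins, and it can also cut some tRNAs.

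The genes of nuclear tRNAs are almost absent from the transcript set, so the tRNAs were rebuilt from overlapping reads, starting from the most frequent member of each group that held box A at base 8. Of 17 starting groups, 14 gave a sequence that folds as a cloverleaf and ends in CCA, and 3 did not. Each one, without its CCA, had the length of at least 1 RefSeq tRNA gene with that anticodon, except that Val-GAC matched the length of 7 genes for anticodon AAC, whose first base is read as G after deamination. The names below give the amino acid and the anticodon. Box A is in capitals in these 5′ forms, each the most frequent member of 28 to 35 nt for its tRNA, since they lead the reads described next.
Gly-GCC: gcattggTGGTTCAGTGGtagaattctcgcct
Gly-GCC form 2: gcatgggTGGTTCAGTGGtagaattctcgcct
Lys-CTT: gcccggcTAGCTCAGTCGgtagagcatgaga
Lys-TTT: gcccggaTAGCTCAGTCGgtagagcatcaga
Asp-GTC: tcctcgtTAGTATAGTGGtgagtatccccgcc
Gly-TCC: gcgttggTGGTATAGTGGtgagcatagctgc
Val-TAC: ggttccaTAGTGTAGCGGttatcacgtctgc
Met-CAT: agcagagTGGCGCAGCGGaagcgtgctggg

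The 2 most frequent forms are parts of the rebuilt tRNAs below, in which the anticodon is in capitals. They are shown because the rebuilt forms differ in both the 5′ and the 3′ part.
tRNA-Gly-GCC: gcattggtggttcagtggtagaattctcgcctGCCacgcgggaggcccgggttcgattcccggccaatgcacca
tRNA-Gly-GCC form 2: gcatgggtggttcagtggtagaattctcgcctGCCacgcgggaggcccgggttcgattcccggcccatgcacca
Counted from 1 at the 5′ end, form 2 differs by T5G and A66C. With the CCA both are 74 nt long, and all 7 acceptor stem bases pair in each. Of the possible 3′ ends, the search took the one whose acceptor stem pairs best. The pairing of these 2 differences is thus part of how the forms were rebuilt. Reads of at most 36 nt are too short to hold both bases. RefSeq lists 14 genes for Gly-GCC, all of 71 nt. The 3′ end of the first form, ggccaatgcacca, was read 5170 times in f/f and 14050 times in null. That of form 2, ggcccatgcacca, was read 669 and 3307 times. The weakest step of the path had 224 reads for the first form and 29 for form 2.

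As a set, the members had 138444 reads in f/f and 785074 in null. These were 1.39% (1.38 to 1.40) and 12.5% (12.5 to 12.5) of each library, or 13922 and 124781 CPM, which counts reads in 1000000 reads of the whole library. The null level was 8.96 times the f/f level (8.91 to 9.01). Reads of 28 to 35 nt of every kind were 8.13 times as frequent in null (8.09 to 8.16), and the members were 50.3% of them in f/f and 55.5% in null. Sequences of this size that match a transcript were 6.31-fold higher (6.26 to 6.36), and unmatched ones ending in CCA 11.4-fold (11.1 to 11.7). CPM depends on what else is in a library. SnoRNA and snRNA reads together were 4.35-fold higher in null in CPM (4.32 to 4.38), so a ratio below 4.35 lies below 1 when counted per snoRNA and snRNA read. On that scale the members were 2.06-fold higher in null (2.05 to 2.07). The parts of the scale moved unequally. At 28 to 35 nt, reads matching snoRNAs were 6.04-fold higher in null in CPM and those matching snRNAs 1.63-fold.

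By origin, 1296 members lay within a tRNA with at most 1 mismatch. They had 53667 reads in f/f and 460670 in null, which was 38.8% of the members' reads in f/f (38.5 to 39.0) and 58.7% in null (58.6 to 58.8). Their level rose from 5397 CPM in f/f to 73220 CPM in null, a ratio of 13.6 (13.4 to 13.7). The 3214 members for which no origin was found had 58055 and 179125 reads, 41.9% of the f/f reads and 22.8% of the null reads, with a ratio of 4.88 (4.83 to 4.92). Other classes were smaller, and many of their members are tailed or mismatched forms of annotated RNAs. Among these, 3′ tails of other small RNAs, most of them Y RNAs, had a ratio of 12.2 (11.9 to 12.5), 3′ tails of mitochondrial RNAs one of 12.9 (12.4 to 13.5), and mismatched forms of snoRNAs one of 8.01 (7.66 to 8.38). Mismatched forms of rRNA went the other way, with 2274 reads in f/f and 502 in null and a ratio of 0.349 (0.316 to 0.384).

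**Figure D1:**
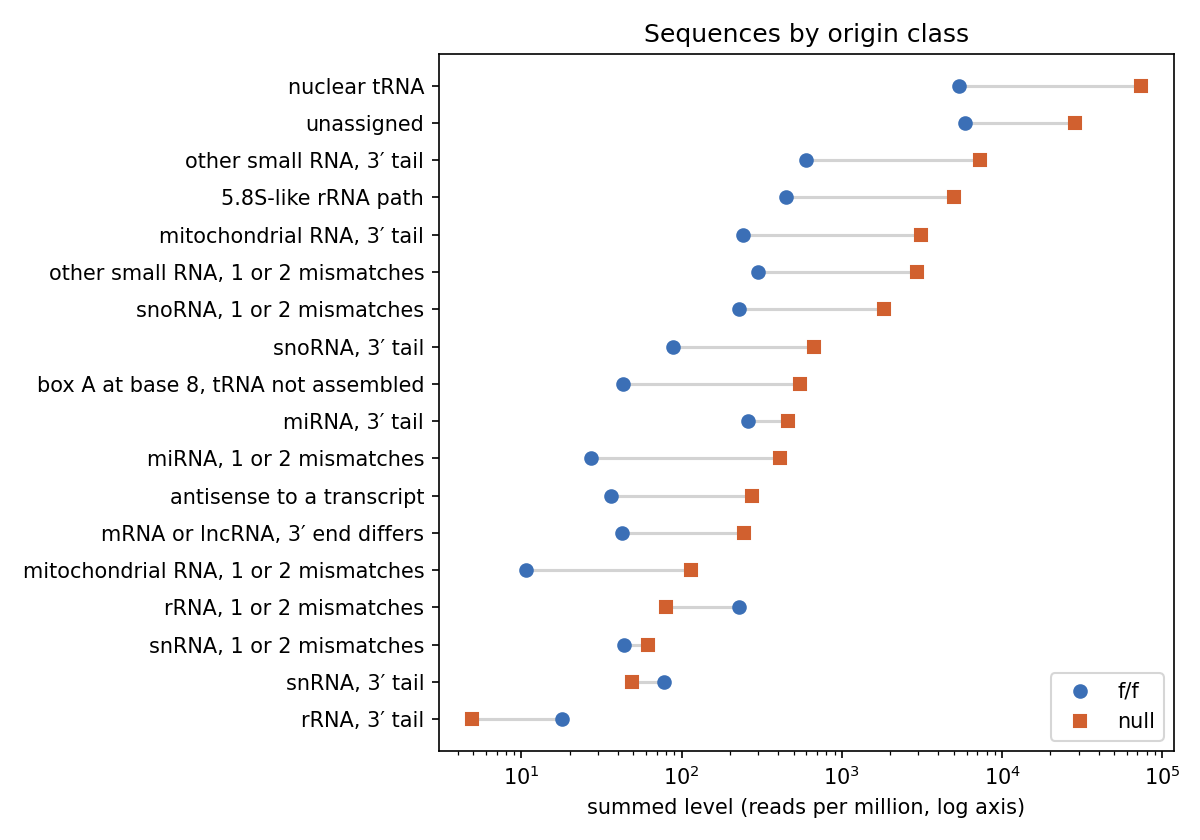
Summed level of each origin class in f/f (circles) and null (squares), in CPM on a log axis, 1 library each. The tRNA class lies furthest right in null, at 73220, and mismatched or tailed rRNA and tailed snRNA are the classes in which null lies left of f/f.

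Members that share their first 15 nt formed 3006 groups, of which 484 had 100 or more reads. In CPM, 442 of these were more than 2-fold higher in null (91.3%) and 11 more than 2-fold lower (2.27%). Over all 15-nt groups of reads of 18 nt or longer, which include the miRNAs, the shares were 66.5% and 25.6%. Among 28 to 35 nt reads that match a transcript they were 87.8% and 4.5%, so the members' count stands close to that of other reads of their size. Per snoRNA and snRNA read, 340 member groups were higher (70.2%) and 45 lower (9.3%), beside 53.6% and 12.2% of the matched groups and 35.7% and 34.5% of all groups. The 120 groups whose leading origin was a tRNA were all among the 442 in CPM, with a median ratio of 17.02, beside 15.3 over all 484. Many of these 120 groups are mismatched forms or shifted starts of the same few tRNAs, so they are not separate observations.

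**Figure D2:**
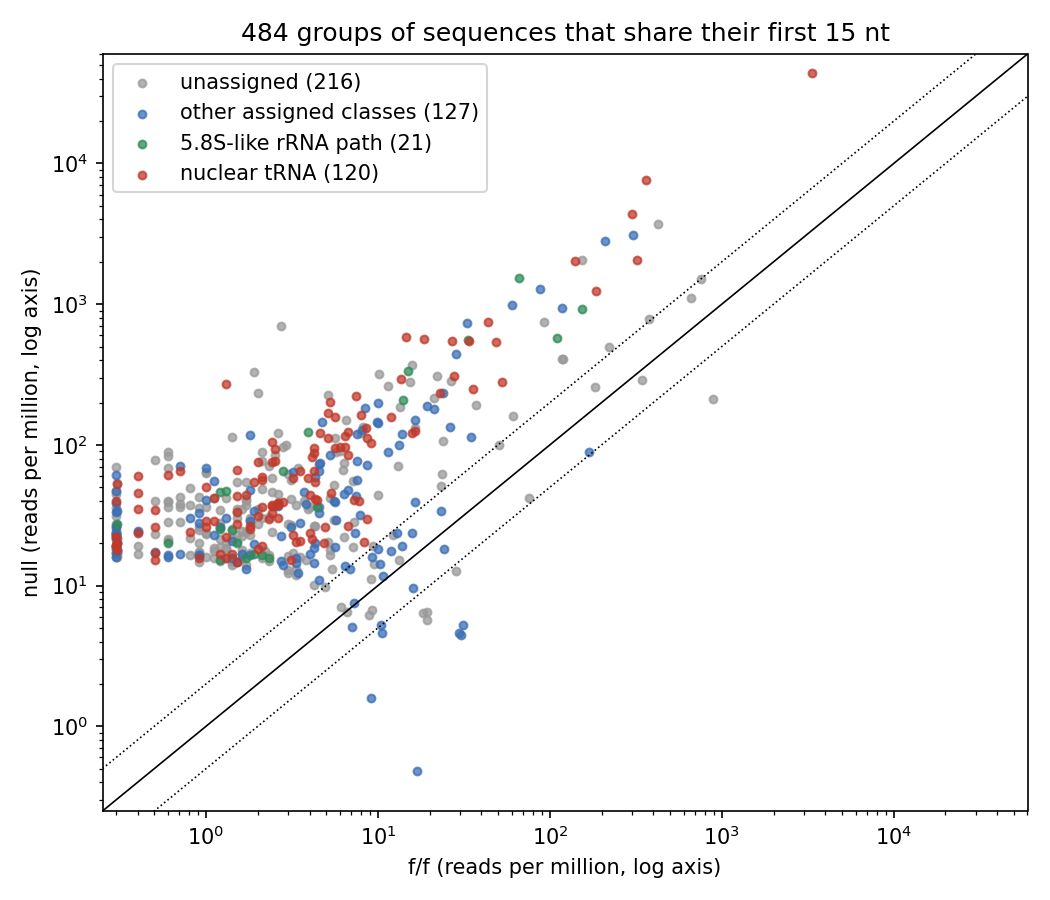
Level of each of the 484 groups in f/f (horizontal) and null (vertical), in CPM on log axes, coloured by leading origin. The solid line marks equal levels and the dotted lines 2-fold differences. Groups with under 3 reads in a library are drawn at about 3 reads. All 120 tRNA groups, many of them forms of the same tRNAs, lie above the upper dotted line.

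The 20 largest groups held 64.7% of the members' reads in f/f and 66.6% in null. Their leading origin was a tRNA in 6, a Y RNA in 3, a 5.8S-like rRNA in 2 and a mitochondrial rRNA in 2, and 7 had no assigned origin. Reads starting at base 1 were 95.6% of the tRNA members' reads in f/f (95.4 to 95.8) and 93.7% in null (93.7 to 93.8). A further 1.69% and 2.79% started at base 2 or 3, 2.47% and 3.14% were internal, and 0.237% and 0.332% came from the 3′ part. Because sequences ending in CCA were left out by the rule, the low 3′ share says nothing of 3′ fragments.

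Box A began at base 8 in 873 members, or 12.8% of the member sequences. They held 36.7% of the members' reads in f/f (36.4 to 36.95) and 54.1% in null (53.9 to 54.2). At the neighbouring starts, base 7 and base 9, 43 and 14 members held it. Of the 28 to 35 nt sequences that match a transcript, 0.209% held box A at base 8 and between 0.0502% and 0.268% at any of the first 17 bases. The motif was searched on the read strand only, and it was used to choose where the rebuilding of tRNAs began, so its presence in them is part of how they were found.

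**Figure D3:**
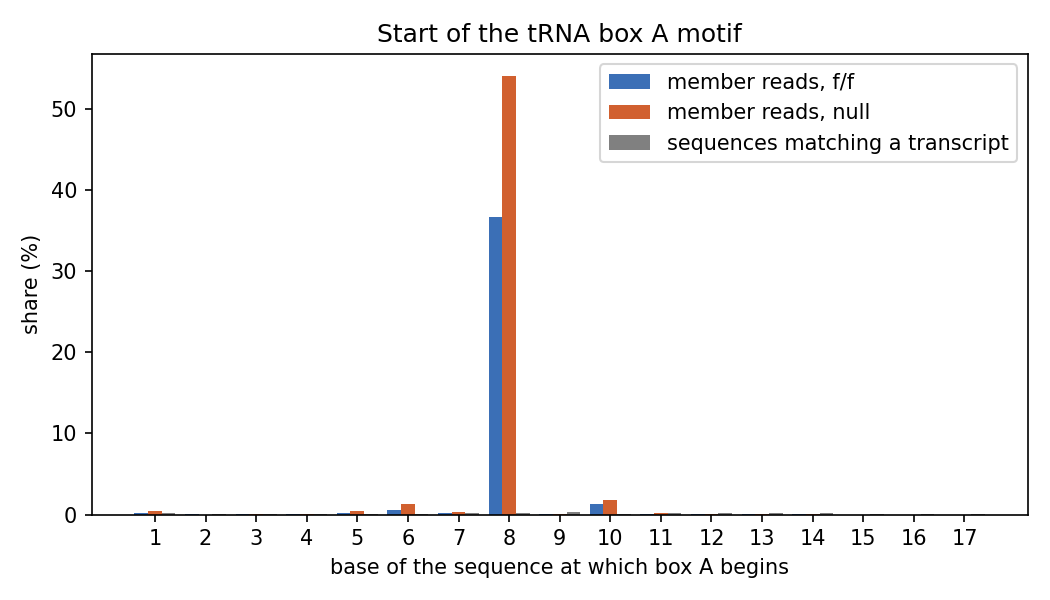
Share of the members' reads in f/f and null, and of distinct 28 to 35 nt sequences that match a transcript, in which box A begins at each base. At base 8 the shares are 36.7% (f/f reads), 54.1% (null reads) and 0.209% (matched sequences). Counted as distinct sequences, which is not drawn, the members' share at base 8 is 12.8%.

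Glycine tRNA led the set. Gly-GCC fragments from base 1 had 35797 reads in f/f and 304124 in null, or 3599.9 and 48338 CPM, a ratio of 13.4 (13.3 to 13.6). They alone were 69.8% of the tRNA members' reads from base 1 in f/f and 70.4% in null. Form 2 had 3870 and 52078 reads, 389 and 8277 CPM, and a ratio of 21.3 (20.6 to 22.0). The interval of form 2 lies above that of the first form, so the forms moved by unequal amounts between these libraries. Form 3, which differs from the first by G9A and G15A, had 156 and 764 reads and a ratio of 7.74 (6.51 to 9.26). Gly-TCC, whose anticodon reads another set of glycine codons, had 548 and 1839 reads and a ratio of 5.30 (4.82 to 5.85).

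Fragments of both lysine tRNAs and of aspartate tRNA were also frequent. Lys-CTT had 3356 reads in f/f and 13884 in null and a ratio of 6.54 (6.30 to 6.79), and Lys-TTT 1522 and 14310 reads and a ratio of 14.9 (14.1 to 15.7). Thus Lys-CTT was the more frequent of the pair in f/f, at 337 against 153 CPM, and in null the levels were 2207 and 2274 CPM. Their first 31 bases differ only by C7A and G28C. Asp-GTC had 1881 and 8092 reads and a ratio of 6.80 (6.47 to 7.15).

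Some other tRNAs were rarer than these. Val-TAC had 365 reads in f/f and 1627 in null, with a ratio of 7.05 (6.29 to 7.91). Met-CAT, of which RefSeq lists 9 genes of this length, had 56 and 1281 reads and the highest ratio of the rebuilt tRNAs, 36.2 (27.7 to 48.1), but the weakest step of its path had 6 reads. Val-GAC had 53 and 284 reads, in 1 sequence. At the low end, Thr-TGT had 86 and 187 reads and a ratio of 3.44 (2.65 to 4.49), and Glu-TTC 67 and 168 reads and a ratio of 3.96 (2.97 to 5.34). Both intervals include 4.35, so per snoRNA and snRNA read these 2 tRNAs did not differ beyond counting error between the libraries.

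Reads from base 1 were then followed over all lengths of 18 nt or more, counting exact sequences only. Gly-GCC reads of 18 to 23 nt had 12610 reads in f/f and 12679 in null, a ratio of 1.59 (1.55 to 1.63). Those of 30 nt had 11391 and 55412 reads and a ratio of 7.69 (7.53 to 7.85), and those of 31 nt 13050 and 71748 reads and a ratio of 8.69 (8.53 to 8.85). At 32 nt there were 4101 and 119136 reads, a ratio of 45.9 (44.5 to 47.4). Among these length classes the CPM ratio was thus lowest for the shortest Gly-GCC reads and highest at 32 nt, and per snoRNA and snRNA read the 18 to 23 nt reads were lower in null. Form 2 also had its highest ratio at 32 nt, 53.6 (50.0 to 57.7), beside 9.82 at 31 nt and 4.47 at 18 to 23 nt. Asp-GTC showed no such step up to 32 nt, with 6.61 at 31 nt (5.99 to 7.32) and 6.08 at 32 nt (5.52 to 6.71). At 33 nt, which ends at the last base before its anticodon, Asp-GTC had 20 and 1467 reads, or 2.01 and 233 CPM. In Gly-GCC the last base before the anticodon is base 32.

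**Figure D4:**
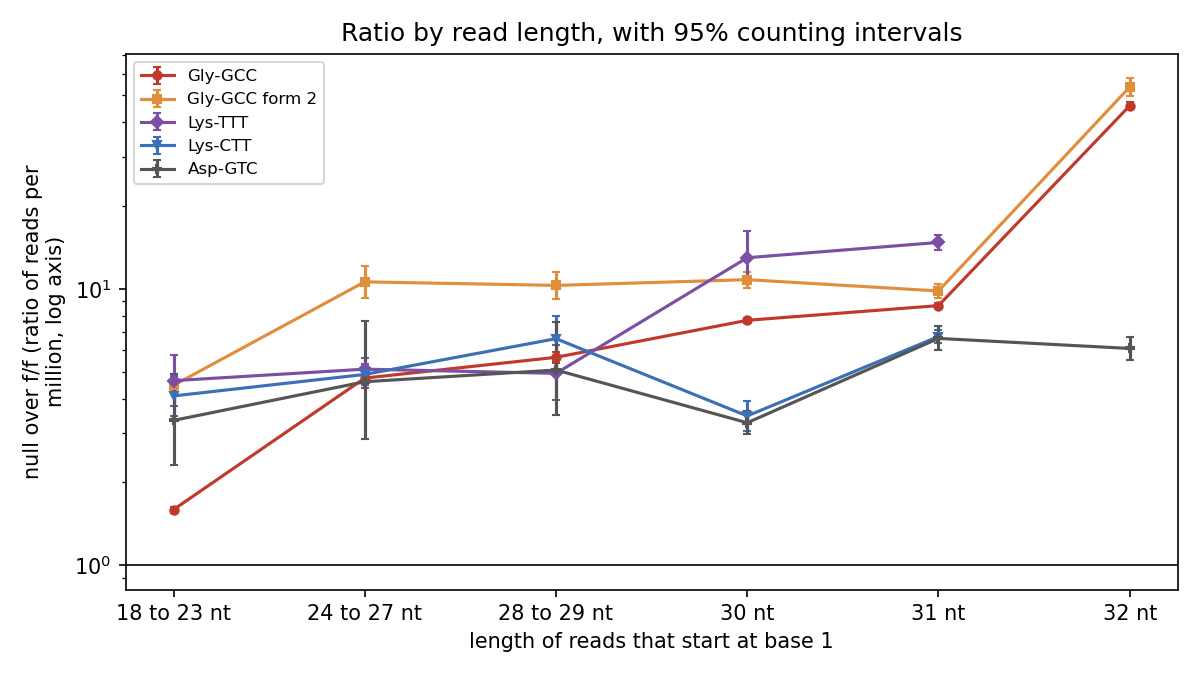
Ratio of null to f/f, on a log axis, for exact reads that start at base 1 of 5 tRNAs, by read length, with 95% counting intervals. Gly-GCC runs from 1.59 at 18 to 23 nt to 45.9 at 32 nt, and Asp-GTC lies between 3.28 and 6.61 up to 32 nt. Longer reads are not drawn. No 32-nt point is drawn for the lysine tRNAs, which had no read of that length.

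In the most frequent tRNAs described here, the 3′ ends lay mostly just before the anticodon. In Gly-GCC the anticodon begins at base 33, and the commonest read length was 31 nt in f/f, 29.5% of reads, and 32 nt in null, 44.1%. Ends 1 to 4 bases before the anticodon made up 68.3% of exact reads in f/f (67.8 to 68.7) and 93.4% in null (93.3 to 93.5). These shares leave out 36-nt reads in which other bases follow base 33, 34 or 35 of the tRNA. Read as described below, those fragments end within the anticodon, and counting them would lower both shares. In both lysine tRNAs the anticodon begins at base 34 and the commonest length was 31 nt in both libraries. That length was 53.5% of Lys-CTT reads in f/f and 62.7% in null, and 54.1% and 74.8% of Lys-TTT reads. Asp-GTC peaked at 30 nt in f/f, 34.8%, and at 31 nt in null, 28.7%. Other tRNAs differed from these. Val-TAC had its commonest length at 23 nt in both libraries, 47.96% and 44.5%, and 23.9% and 35.6% of its ends within 4 bases before the anticodon. In Gly-TCC those ends were 30.8% and 34.7%. Its commonest exact length was 30 nt in f/f and 36 nt, the longest read, in null, but those 36-nt reads may end earlier, as described below. Glu-TTC peaked at 25 nt in null and Val-GAC at 24 nt in f/f.

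**Figure D5:**
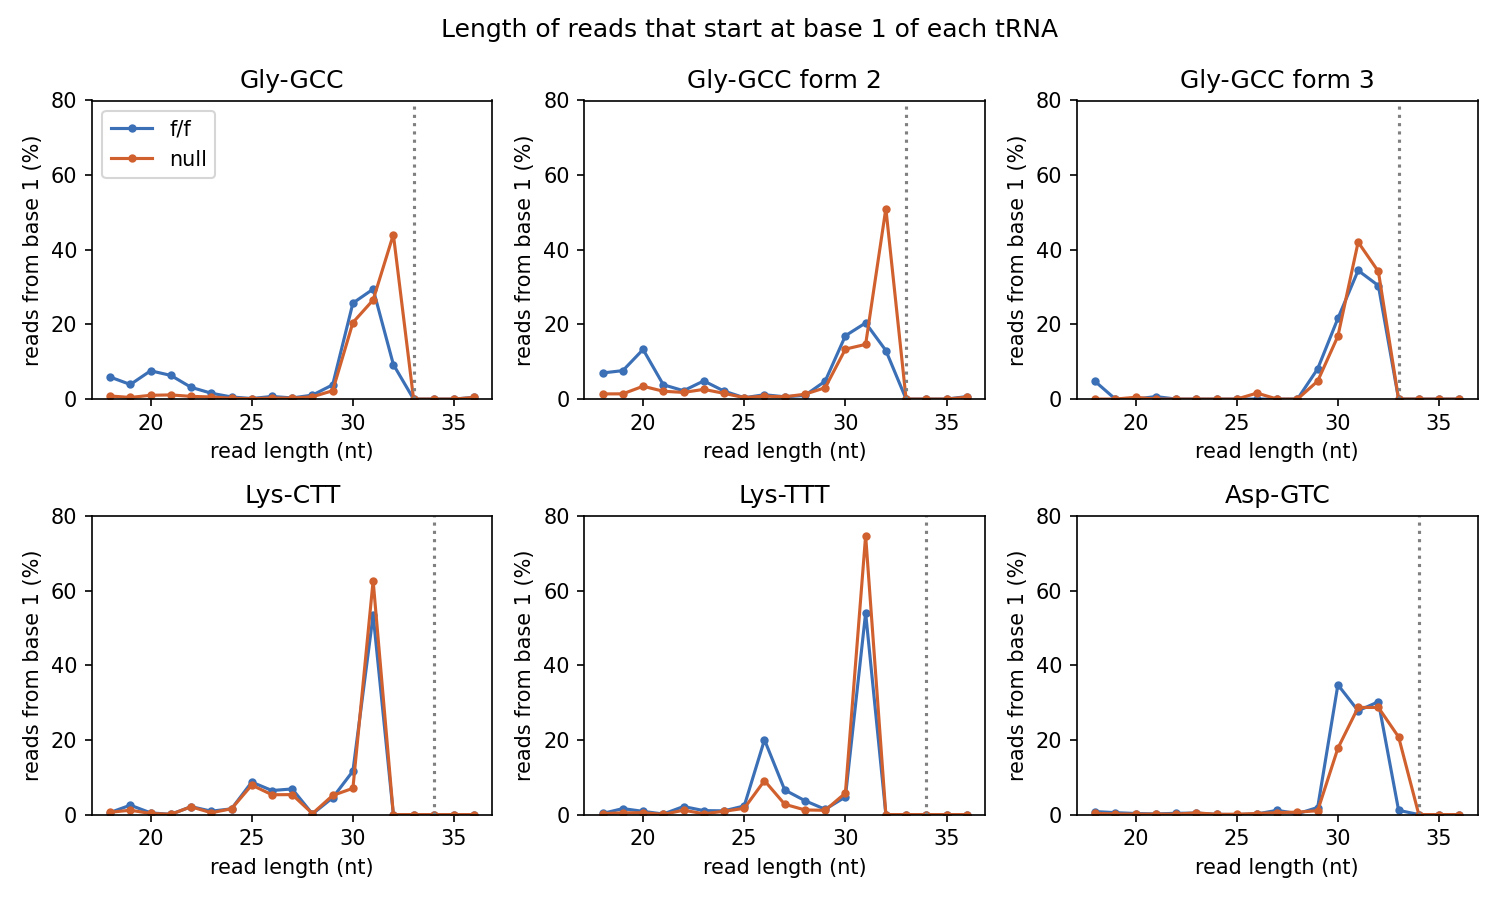
Share of exact reads starting at base 1 of 6 tRNAs that have each length, in f/f and null. The dotted line marks the first base of the anticodon, and the peak stands at 30 to 32 nt in every panel.

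How the reads were trimmed sets the upper end of these lengths. Reads were at most 36 nt long, and members of 33, 34 and 35 nt numbered 298, 25 and 0. Of the 36-nt reads that hold the first 33 bases of Gly-GCC, 46.0% ended in CTG, 23.95% in CCT and 19.9% in CCC. These fit base 33, 34 or 35 of the tRNA followed by the first bases of a linker that begins CTG, too little of it to have been removed. Read this way, Gly-GCC fragments to base 33 had 1463 reads in f/f and 28149 in null, a ratio of 30.4 (28.9 to 32.1). Fragments to base 34 had 989 and 14438 reads, a ratio of 23.1 (21.6 to 24.6), and those to base 35 had 759 and 12083, a ratio of 25.2 (23.4 to 27.1). The ratio of the 32-nt form, 45.9, was thus above those of the longer forms. G stood at base 33 in 96.8% of the 36-nt f/f reads that begin with the 32-nt form and in 95.4% of the null reads, which fits GCC and not a CCC anticodon. In Gly-TCC base 36 is also C, so its 156 f/f and 1274 null reads of 36 nt fit base 36, or base 35 followed by 1 linker base. Gly-TCC reads that fit base 34 followed by 2 linker bases numbered 128 and 2806, more in null than any exact length. Lys-CTT had 0 reads at 32 nt beside 1634 in f/f and 6942 in null at 31 nt, and Lys-TTT 0 beside 1074 and 9994. In both lysine tRNAs bases 32 and 33 are ct, which are also the first bases of that linker. Bases 31 to 33 of Gly-GCC and bases 32 to 34 of Asp-GTC are ctG, which match CTG in full. Whether longer fragments were shortened by trimming was not tested in any of these tRNAs. Their commonest lengths, and the ratios by length, are thus those of the reads as deposited.

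Reads ending in the CCA of the same tRNAs did not move in proportion. Gly-GCC had 3539 exact CCA-ending reads of 18 to 36 nt in f/f and 7816 in null, a ratio of 3.49 (3.35 to 3.63), where reads from base 1 had 9.64 (9.54 to 9.74). Lys-CTT showed the reverse order, 25.7 for CCA ends (23.2 to 28.5) and 5.73 for reads from base 1 (5.50 to 5.97). In Asp-GTC the ratios were 7.22 (6.92 to 7.54) and 6.41 (6.08 to 6.75). A read of at most 36 nt is too short to hold the whole 3′ part left by a cut at the anticodon of these tRNAs. The CCA ends counted are thus shorter pieces, not the partners of the 5′ fragments. Those of Gly-GCC are also shared with form 3, which has the same 3539 and 7816 reads.

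Members with 1 mismatch to a tRNA held 16.1% of the tRNA members' reads in f/f and 18.3% in null. On the 32-nt Gly-GCC form, 92 of the 96 possible single-base substitutions were read. The median substitution stood at 0.0488% of the unchanged form in f/f and 0.0856% in null. T5G, which is form 2, stood at 19.1% and 22.3%. The next highest in null were C13A at 1.61% and C28A at 1.497%, which were 1.56% and 1.32% in f/f. A14C was uneven, with 1 read in f/f and 801 in null, and its group had 13 and 1711 reads and a ratio of 208 (121 to 391). Whether these are bases of other tRNA genes, modified bases or sequencing errors was not tested.

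Y RNAs, small noncoding RNAs bound by the Ro60 protein, gave the largest assigned class after tRNAs. Rny1 lies at chr6:47788069-47788180 on the minus strand and Rny3 at chr6:47781624-47781725 on the plus strand (GRCm38), and both are annotated as misc_RNA. Many members were pieces of them followed by bases that the gene does not have, which is the reason they match no transcript. The forms shown come from the 3′ ends, with the added bases in capitals.
Rny1: ttctcactactgcacttgactagtcttA
Rny3: gctcccactgcttcacttgaccagcctA
Tailed Rny1 members numbered 159, with 5293 reads in f/f and 38444 in null and a ratio of 11.5 (11.2 to 11.8). A single A was the tail in 66.7% of those reads in f/f and 61.6% in null, and AA in 9.37% and 10.6%. The last base from the gene was most often base 110 of 112, in 57.7% of reads. Tailed Rny3 had 527 and 6921 reads and a ratio of 20.8 (19.0 to 22.7), with a single A in 75.3% and 73.9%. Its last base from the gene was base 99 of 102 in 39.5% of reads. Other tailed Rny3 groups came from elsewhere in the RNA, such as one led by bases 34 to 61, with 99 and 893 reads, and one led by bases 1 to 28, with 47 and 909. Among the tails that can be seen here, a single A was thus the commonest of both Y RNAs in both libraries. An added base that equals the next base of the gene is read as part of the gene, so such tails are not counted.

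Mitochondrial 16S rRNA, mt-Rnr2 (chrM:1094-2675), gave 107 members with added 3′ bases, and most of their reads run into a stretch of A.
mt-Rnr2: aatggttcgtttgtAAAAAAAAAAAAAA
The 107 members had 2182 reads in f/f and 17034 in null, a ratio of 12.3 (11.8 to 12.9), and a run of 5 or more A made up 79.1% and 92.5% of the added ends. A piece shorter than 18 bases, as in the form shown, could enter as a tailed member only through such a run. The share of A runs is thus partly set by the rule. The last rRNA base was base 1390 of 1582 in 84.7% of reads, inside the annotated gene, and the matching piece of the sequence shown is 14 nt long, so its assignment rests on few bases. Members joined by overlaps into a path of 155 nt that is 82.7% identical to the annotated 5.8S rRNA gene n-R5-8s1 had 4435 reads in f/f and 31411 in null, a ratio of 11.2 (10.8 to 11.6). 2 of the largest 20 groups lay on it, with ratios of 23.2 and 5.95. SnoRNA forms with 1 or 2 mismatches had their largest group from Gm25789, with 211 and 1132 reads and a ratio of 8.48 (7.31 to 9.87), and tailed Snord72 had 238 and 1450 reads, 9.63-fold (8.39 to 11.1).

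The 11 groups that were lower in null were ribosomal, spliceosomal or miRNA pieces, or had no origin. Mismatched forms of the 5S rRNA gene Gm22109 (chr8:123606613-123606731, minus strand) made up 3 of them, and Gm25313, annotated as snRNA, 2. A group of 7 sequences led by a tailed form of Mir30c-1, whose hairpin needs Dicer to yield miR-30c, had 167 reads in f/f and 0 in null. Set against 3 reads, which a count of 0 allows, its ratio would be 0.0284. The reverse was seen for mismatched forms of Mir532, with 0 reads in f/f and 161 in null in the larger of its groups. That is at least 68.2-fold higher in null by the lower limit of its exact interval, and 84.8-fold when f/f is set to 3 reads. Of the 12 groups led by a tailed miRNA, 7 were more than 2-fold higher in null and 1 lower. All 3 groups led by a mismatched miRNA were higher, beside 91.3% of all 484 member groups. Gm47295, annotated as a miRNA on chromosome 12, had 1981 and 978 reads with a 3′ tail, a ratio of 0.780 (0.722 to 0.843).

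The other 5 groups lower in null belong to 1 cluster of overlapping members with no assigned origin. It is the largest of 784 such clusters, with 284 members, 34513 reads in f/f and 27662 in null, and a ratio of 1.27 (1.25 to 1.29), which is below 1 per snoRNA and snRNA read. Its reads shared a 3′ end, 80.2% at the commonest one, and their 5′ ends were spread, 27.7% at the commonest. The second cluster had 5360 and 30503 reads, a ratio of 8.99 (8.74 to 9.26), and the opposite shape, with 77.4% of reads at 1 5′ end. The seventh held 2 of the 3 highest ratios among groups with 1000 or more reads, 260 and 171, between which the A14C group lies. As a whole it had 53 reads in f/f and 7062 in null, a ratio of 211 (161 to 281).

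Unassigned members were also read for short sequence marks on the read strand. TGATGA within the first 14 bases, the C box of C/D snoRNAs being TGATGA after an A or G, was present in 211 of them. These had 908 reads in f/f and 14665 in null, a ratio of 25.5 (23.9 to 27.3). Of these, 171 also held CTGA, the D box, within the last 8 bases. The 28 to 35 nt sequences that match a transcript held TGATGA there in 3.11%, beside 6.57% of unassigned members. By reads the order turned: it was in 11.4% of matched reads in f/f and 14.4% in null, beside 1.56% and 8.19% of unassigned reads. A run of TTTT, where RNA polymerase III stops, ended 175 unassigned members, with 5541 and 13850 reads and a ratio of 3.95 (3.83 to 4.08), which lies below 4.35. It ended 5.44% of unassigned members and 0.602% of matched sequences. The other 2828 had a ratio of 4.61 (4.57 to 4.66).

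Length separated the origins. Members of 30 to 32 nt held 62.4% of the members' reads in f/f (62.1 to 62.7) and 72.5% in null (72.4 to 72.6). Among tRNA members the shares were 90.5% (90.3 to 90.8) and 92.8% (92.7 to 92.8), and among unassigned members 45.5% (45.1 to 45.9) and 48.6% (48.4 to 48.9). G was the first base in 55.9% of the members' reads in f/f and 62.0% in null, and in 86.4% and 84.7% of tRNA members' reads.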

How the data were processed

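Small RNA of 15 to 50 nt, cut from a 15% gel, was sequenced by the Illumina small RNA protocol, per the labels' protocols. The authors deposited raw counts: each distinct read sequence with its number of reads, and no coordinates. The genome build was mm9 per the submitters' processing notes, while the sources used here name neither the trimming tool nor the aligner.

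Reads of 18 nt or longer were matched without mismatch to GENCODE M21 transcripts (GRCm38). Members were grouped by their first 15 nt. Box A was searched by its consensus, on the read strand. tRNAs were rebuilt through overlaps of 16 nt, each step having at least 5 reads, ending in a CCA end with 10 or more reads and pairing 6 or more of 7 acceptor bases. Where several ends passed, the one with the best paired acceptor stem was taken, and then the one with most reads. They were compared with the anticodons and lengths of 408 RefSeq nuclear tRNA genes (GRCm38.p6), whose coordinates are not given since the builds differ. 13 of these genes had a sequence inside a transcript or promoter window. A member took, in order, a tRNA with at most 1 mismatch, a small RNA followed by a tail of up to 3 bases, a small RNA with 1 or 2 mismatches, a tail of up to 10 bases, a mitochondrial piece of 13 or more bases before 5 or more A, an mRNA or lncRNA prefix of 24 or more bases, or an antisense match. The tail of up to 3 bases was placed before mismatches after the values were seen. Unassigned members sharing 16 nt were joined, and those within 2 edits of the 5.8S path were taken as that class.

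CPM is reads in 1000000 reads of the whole library. Shares have exact Clopper-Pearson intervals and ratios exact conditional intervals, at 95%. A 0 was set to 3 reads for ratios, a level of 0.302 CPM for f/f and 0.477 CPM for null. No test across genotypes was made. Named were the 20 largest groups, the 5 highest and 5 lowest ratios among groups with 1000 or more reads, and the 3 largest groups of each origin, of which only those that a result turns on are described. Trimming effects, read lengths, mismatches, tails and groups outside this rule were looked at after their values were seen. The members, lists and rules were chosen with earlier results of these data known. Python 3.11.15, numpy 2.4.6, pandas 2.3.3, scipy 1.17.1, matplotlib 3.10.9 and edlib 1.3.9.post1 were used. On simulated fragments without errors that cover each tRNA throughout, 10 of 11 RefSeq tRNAs that pass the cloverleaf check were rebuilt. The real reads are less even and hold mismatched forms, so this does not show how often parts of different tRNAs were joined. The intervals and calls were tested on simulated data too. Values of 1 item are not reported here.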

Additional observations from a re-analysis of the deposited data

How the results depend on the processing

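The members' ratio of 8.96 stayed above 1 under all 8 alternatives. It was 8.96 when matches without the last 3 nt were also removed and 8.97 when matches on either strand were, 9.08 with 2 or more reads, 9.04 with 100 or more, 9.96 at 30 to 34 nt, 9.84 per read of 18 nt or longer, 2.06 per snoRNA and snRNA read and 1.10 per read of 28 to 35 nt. The 442 groups above 2-fold became 220 per read of 28 to 35 nt. The 11 groups below 2-fold became 6 at a fold of 4, 45 per snoRNA and snRNA read and 74 per read of 28 to 35 nt. The box A share in f/f and null was 42.1% and 61.9% with 100 or more reads, and 14.9% and 12.9% with each sequence counted once, which turns the order of the libraries. It was 54.4% in null with starts at base 7, 8 or 9. The 30 to 32 nt share in f/f and null was 51.8% and 52.4% with each sequence counted once, and 64.9% and 76.2% with 100 or more reads. No paired analysis was possible because each genotype has 1 library. For the same reason no library could be left out. Depth limits sequences near the minimum of 10 reads, and reads of 33 to 35 nt are undercounted where linker bases were not removed.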
